A study of Mus musculus with 18 samples.

Results

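Mouse embryoid bodies grown for 4 days without leukaemia inhibitory factor (LIF), named D4-LIF here, were compared with the undifferentiated embryonic stem (ES) cells they came from, named D0. Each condition was hybridised to 2 arrays, 1 with the sample in Cy3 and 1 with it in Cy5, always against a pooled control in the other dye, and D4-LIF was set against D0 between arrays of the same sample dye. The features compared were all cDNA clones with a single gene symbol and a value on all 4 arrays. There were 9866 of these among the 15360 clones of the array set, 4866 on slide 1 and 5000 on slide 2, and they stood for 7142 genes. The full study held 18 arrays of 9 conditions, which were D0 and bodies of days 1, 2, 3 and 4 with or without LIF.

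Both conditions used IMT11, a single mouse ES cell line kept on gelatin in LIF with foetal and newborn calf serum. Bodies were started as hanging drops of 1000 cells, then flooded with medium and kept in suspension with LIF left out. Each array read RNA from many cells, so fewer cells of a type and less RNA per cell cannot be told apart in any value below. According to the labels, repeat arrays used different RNA samples. The sources describe 2 biological sets of cultures but do not tie arrays to sets. A difference between dyes and a difference between sets therefore cannot be told apart.

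LIF is the cytokine that keeps mouse ES cells self-renewing, acting through its receptor and the transcription factor STAT3. When it is withdrawn and the cells aggregate, the outer cells of the body typically become primitive endoderm resting on a basement membrane, while the inner cells form an ectoderm-like epithelium from which primitive streak and mesoderm genes are later switched on. Factors such as Oct4 and Nanog hold the pluripotent state and are lost along the way, in some cells sooner than in others. ES cells divide fast and make ribosomes at a high rate, so genes of the translation machinery are a natural set to follow beside the lineage markers.

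Values are log2 ratios of sample to pool, centred within each slide on each array, and a difference of 1 on this scale is a 2-fold difference. Which channel was divided by which was not stated. Sample over pool is taken as likely here, on the sole basis that each array is described as a sample set against the pool. The D0 and D4-LIF arrays of 1 dye correlated positively over the 15360 clones (Pearson's r 0.58 in Cy3 and 0.76 in Cy5), which would be so under either reading. Within a condition the Cy3 and Cy5 arrays correlated negatively, at −0.52 for D0 and −0.50 for D4-LIF. These correlations describe clones that share probes, pool and dyes. Results are also given below with the Cy3 ratios turned in sign, and most directions did not hold under that reading.

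One array stood apart. On slide 1 the D0 array with the sample in Cy3 had an SD of 2.23 over clones, where the other 3 arrays had 0.32, 0.51 and 0.67. On slide 2 its SD of 0.49 lay among those of the other arrays, which were 0.22, 0.43 and 0.59. Its MAD (median absolute deviation) was the widest on both slides, at 1.62 on slide 1 and 0.26 on slide 2, where the others had 0.13 to 0.14. Differences in the Cy3 pair therefore carry wide values of that array, by far most on slide 1. Values without this array are given for the genes and main lists that it moves most.

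**Figure D1:**
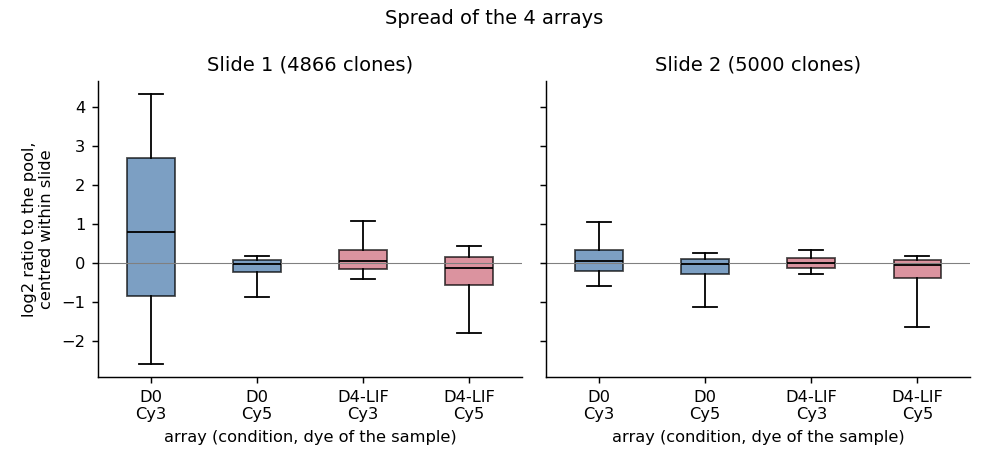
Centred log2 ratio to the pool of the member clones on slide 1 (left, 4866 clones) and slide 2 (right, 5000 clones) for each of the 4 arrays. Boxes span the quartiles with the median as a line, and whiskers run from the lowest to the highest 5 percent. The D0 array in Cy3 has the widest box on both slides, far wider on slide 1 (MAD 1.62 over all its clones) than on slide 2 (MAD 0.26).

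Most genes with a large difference were lower in the bodies. Of the 7142 genes, 162 (2.27%) were at least 2-fold lower in both dye pairs and 5 (0.07%) were at least 2-fold higher. The higher ones were Mrps9, a protein of the mitochondrial ribosome, Ankrd50, Aurkb, the mitotic kinase, Snx9, an endocytic adaptor, and Spryd7. Snx9 differed by 1.63, and by 0.75 without the D0 Cy3 array. Of the lower genes, 107 were measured on slide 1 alone, 18 on slide 2 alone and 37 on both. Agreement in direction was looser, with 2635 genes (36.9%) lower and 1624 (22.7%) higher in both pairs, and 2883 whose pairs disagreed. Over all clones the differences of the Cy3 pair and of the Cy5 pair correlated at r 0.50, at 0.59 on slide 1 and 0.26 on slide 2, where Spearman's rho was 0.01. With the common dye pattern regressed out r was 0.22 over both slides and −0.18 on slide 2, so on slide 2 the pairs did not go together under that setting. All clones share the same 4 arrays in this measure.

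No gene passed the test. In a limma fit with a dye term and Benjamini-Hochberg adjustment, 0 of 7142 genes (0%) and 0 of 15360 clones (0%) were called at 0.05, and the lowest adjusted p of a gene was 0.237. At an unadjusted p under 0.05 there were 909 genes (12.7%), 677 lower (9.48%) and 232 higher (3.25%), and 1814 clones (11.8%). With 2 arrays a condition the number of arrays limits the precision. Under other settings calls came only after quantile normalization (1 clone) and in the fit that left out the D0 array in Cy5. In that fit D0 rested on the widely spread Cy3 array alone. The asymmetry between higher and lower genes moved with the scale of the arrays. When every array was brought to an equal MAD, 11 genes were at least 2-fold higher and 5 lower in both pairs, after quantile normalization 62 and 4, and with the Cy3 ratios turned 2 and 2. Without any centring the split was 39 higher and 21 lower.

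**Figure D2:**
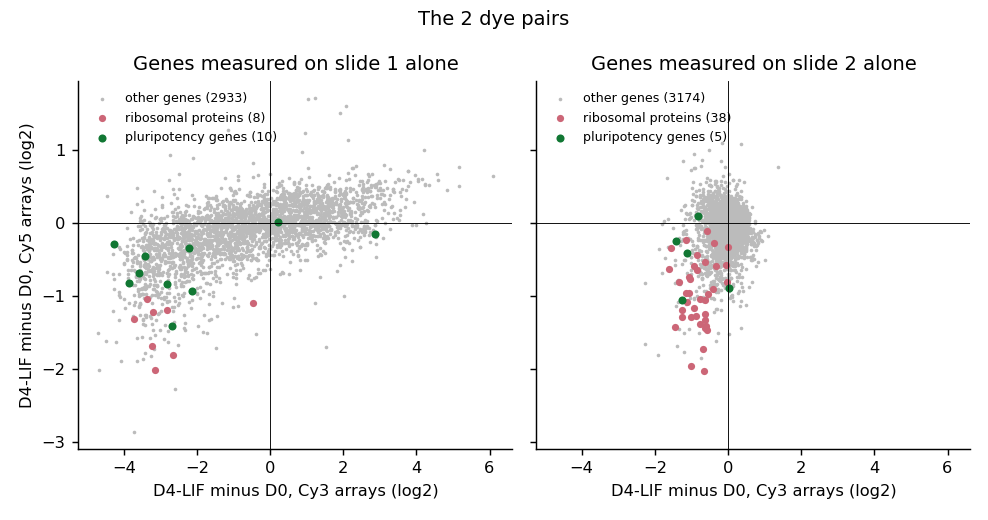
D4-LIF minus D0 (log2) in the Cy3 arrays (horizontal) and in the Cy5 arrays (vertical), for genes measured on slide 1 alone (left) and slide 2 alone (right), 1 point a gene. Ribosomal protein genes sit left of and below 0 on both slides, while slide 1 genes spread far more along the Cy3 axis than slide 2 genes.

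A single direction in both pairs under 4 scalings was found for 696 higher (9.75%) and 977 lower (13.7%) genes, and the 12 of smallest p on each side lead the account. Among the 12 higher ones were regulators of the early embryo such as Cited2 and Trim71. Mrps9, Ankrd50, Cited2, Tgfb2, Fthl17a and Car7 were each read by 1 clone on slide 1, and Trim71 by 1 clone on slide 2. Dnmt1 and Aurkb, outside the 12, also had 1 clone each, on slide 1. Mrps9 read −1.12 and −1.34 in the D0 arrays (Cy3, then Cy5, as in all lists of array values here) and 0.12 and 0.38 in D4-LIF. Both D4-LIF values lay above both D0 values, a difference of 1.48 ± 0.23 (SE, 2 arrays each). Ankrd50 was alike, at −0.83 and −1.31 in D0 against 0.22 and 0.39, a difference of 1.37 ± 0.27. For both genes the D0 values of the dyes were close and the difference stayed positive without the D0 Cy3 array (1.79 and 1.80) and with the Cy3 ratios turned (0.24 and 0.33). Other bodies gave similar differences from the same D0 arrays in some of the 12 genes. Mrps9 differed by 1.34, 0.95 and 1.32 on days 1, 2 and 3 without LIF, and by 1.21 on day 4 with LIF. For Cited2 these were 2.18, 2.50, 2.40 and 1.95. Tgfb2 was unlike them, at 0.58, −0.04, 0.40 and 0.06. Differences like that of Mrps9 are thus not particular to day 4 bodies without LIF.

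Dnmt1 stands outside that group, since its pairs did not keep 1 sign under all 4 scalings. It is named from a list of 51 measured chromatin regulators, of which 28 were lower and 6 higher in both pairs (36.9% and 22.7% of all genes). The median of that list was −0.43 (−0.13 without the D0 Cy3 array). Dnmt1, the maintenance DNA methyltransferase, read −1.15 and −1.31 in D0 and −0.18 and −0.08 in D4-LIF. Its arrays did not overlap and its difference of 1.10 ± 0.17 was among the 3 of lowest adjusted p (0.237, limma with Benjamini-Hochberg adjustment), the others being Sod1 and Rpl37. From the same D0 arrays Dnmt1 also differed by 1.07, 1.43 and 1.32 on days 1, 2 and 3 without LIF, and by 1.29 on day 4 with LIF. Trim71, the LIN41 RNA-binding protein of the let-7 pathway, was the leading higher gene of slide 2. It read −0.32 and −1.02 in D0 and 0.03 and 0.06 in D4-LIF, a difference of 0.71 ± 0.20 without overlap. With the Cy3 ratios turned the difference of Trim71 was 0.36, and 1.05 without the D0 Cy3 array.

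Tgfb2, a secreted ligand of the TGF-beta family, read −0.35 and −0.13 in D0 and 0.43 and 0.44 in D4-LIF. The pair of D4-LIF values nearly coincided, and the difference was 0.67 ± 0.17. Cited2, a CBP/p300-binding coactivator needed in the early embryo, had the widest difference of these genes, 2.60 ± 0.71, from −3.91 and −0.34 in D0 to 0.30 and 0.66 in D4-LIF. Much of it came from the D0 Cy3 array: without that array the difference was 1.07. Vrtn, Fthl17a and Car7, a vertebral-number regulator, a ferritin-like protein and a carbonic anhydrase, differed by 1.13, 1.49 and 1.37, and by 0.68, 0.71 and 0.68 without the D0 Cy3 array. Across all genes the arrays did not overlap for 493 higher (6.9%) and 577 lower (8.08%) genes.

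The 12 lower genes of smallest p held genes of protein synthesis such as Rpl37, Rps9, Rpsa, Rpl7 and Eif3k, beside Ftl1, Sod1 and parts of the ATP synthase. Sod1, the cytosolic superoxide dismutase, was measured on slide 2 and read 1.49 and −0.69 in D0 and −0.41 and −2.50 in D4-LIF. D4-LIF lay below D0 by similar amounts inside each dye, a difference of −1.86 ± 0.30, although the Cy3 D4-LIF value lay above the Cy5 D0 value. Without the D0 Cy3 array the difference was −1.87, so it did not depend on that array. Ftl1, a chain of ferritin, which stores iron, was read by 6 clones that differed by −3.12 to −1.70. Its gene values were 3.54 and −0.84 in D0 and 0.00 and −2.90 in D4-LIF, a difference of −2.79 ± 0.68 that was −1.59 without the D0 Cy3 array.

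Eif3k, Anxa6 and Hspb1 were lower without overlap of the arrays. Eif3k, part of the translation initiation complex eIF3, read 1.81 and 0.18 in D0 and −0.02 and −1.32 in D4-LIF, a difference of −1.67 ± 0.36. Anxa6, a calcium-dependent membrane-binding protein, read 0.52 and −0.55 in D0 and −0.86 and −1.63 in D4-LIF on slide 2, a difference of −1.23 ± 0.29. Hspb1, a small heat shock protein, read 0.97 and −1.17 in D0 and −1.29 and −2.83 in D4-LIF on slide 2, a difference of −1.96 ± 0.50. Rhoa, the GTPase, and Atp5b and Atp5pb, subunits of the ATP synthase, had overlapping arrays and differences of −1.50, −1.45 and −1.53, which were −1.04, −0.97 and −1.01 without the D0 Cy3 array. With the Cy3 ratios turned these differences were of the other sign, from 0.15 for Anxa6 to 0.39 for Atp5b and Atp5pb, and that of Sod1 was 0.05.

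**Figure D3:**
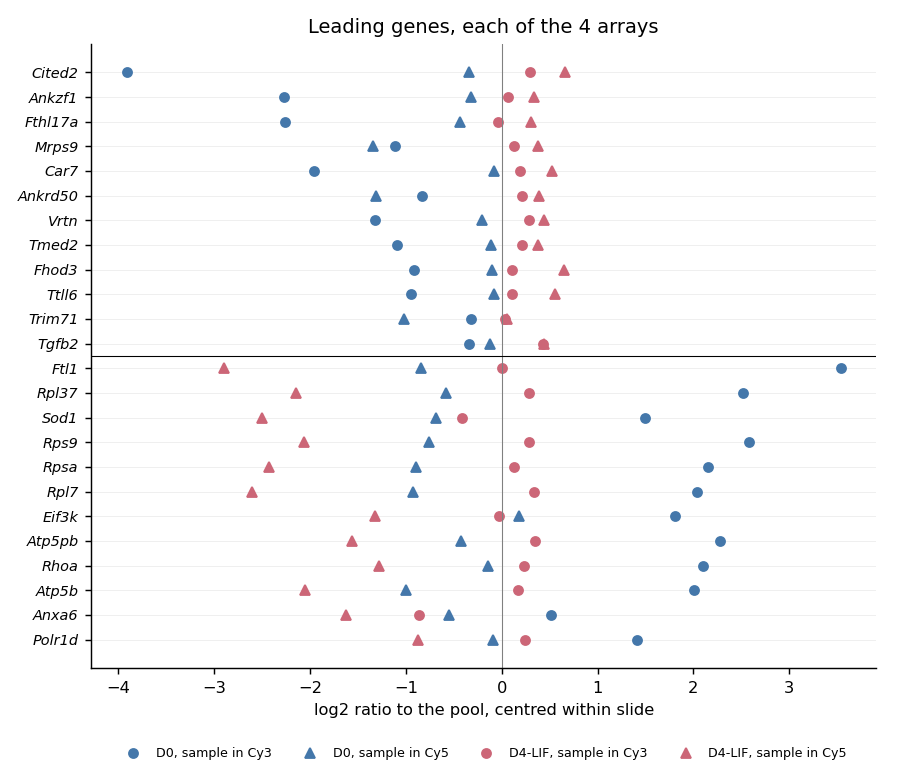
Centred log2 ratio to the pool in each of the 4 arrays for the 12 higher genes (above the line) and 12 lower genes (below it) of smallest p whose direction held in both pairs under 4 scalings. Circles are arrays with the sample in Cy3 and triangles in Cy5, blue is D0 and red D4-LIF. For the higher genes both red marks lie right of both blue ones, as for Mrps9, while for most lower genes red lies left of blue only within a dye, as for Sod1.

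Genes of the pluripotent state were lower in the bodies in most cases, by amounts that rested on the D0 Cy3 array. Of 33 listed transcription factors and core ES cell genes, 20 were measured. There were 14 lower and 1 higher in both dye pairs, where 36.9% and 22.7% of all genes were. The higher one was Otx2, a factor of the primed epiblast, at 0.11 ± 0.18. At an unadjusted p under 0.05, 10 of the 20 were lower and 0 higher (9.48% and 3.25% of all genes), none passing adjustment. The median difference was −1.24 beside −0.07 for all genes, and it was −0.45 without the D0 Cy3 array and −0.48 over the 10 genes with a clone on slide 2. It was −0.32 at equal MAD, −0.56 after quantile normalization and −0.47 with the dye pattern regressed out. Bodies of other days and with LIF also stood below the same D0 arrays in this list. Their medians were −0.99 on day 1, −0.58 on day 2 and −1.05 on day 3 without LIF, and −1.36 on day 4 with LIF.

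Pou5f1, which encodes Oct4, read 3.85 and 0.08 in D0 and 1.16 and −1.34 in D4-LIF. It was more than 2-fold lower within each dye, a difference of −2.06 ± 0.77, and −1.07 without the D0 Cy3 array. Nanog, the homeodomain factor of ground-state cells, read 3.80 and −0.71 in D0 and −0.05 and −1.53 in D4-LIF, a difference of −2.34 ± 0.86, and −0.78 without the D0 Cy3 array. Zfp42, also known as Rex1, a marker lost as cells leave the naive state, read 3.89 and −1.23 in D0 and −0.39 and −1.51 in D4-LIF. Its Cy5 values were close to each other, and its difference of −2.28 ± 0.91 became −0.47 without the D0 Cy3 array and 0.21 with arrays at equal MAD. In the paper's RT-PCR, expression of Pou5f1, Nanog and Zfp42 was kept or even rose by day 4 at its higher serum concentrations. Such serum was chosen for the arrayed bodies. In the paper's RT-PCR of single day 4 bodies without LIF, Zfp42 was found in a majority of bodies, while Pou5f1 and Nanog were not.

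The markers of the ES cell label were thus above the pool in D0 in Cy3 and near or below it in Cy5. In the Cy5 array Pou5f1 stood at 0.08 and Nanog at −0.71, so the D0 arrays did not both place ES cell genes above the pool. By one source the pool held D0 RNA as well as that of the bodies, and by another only the bodies. Its makeup sets where 0 lies and does not enter a difference between conditions.

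Klf4 and Socs3, a reprogramming factor and the feedback inhibitor of LIF signalling, are both induced by STAT3. Their differences were −1.94 ± 0.76 and −1.66 ± 0.62, and −0.60 and −0.73 without the D0 Cy3 array. The full list of 11 measured LIF-responsive genes had 5 lower and 1 higher in both pairs (36.9% and 22.7% of all genes) and a median of −0.17. Myc, a growth regulator that LIF also sustains, differed by −1.03 ± 0.56, and by −0.31 without the D0 Cy3 array. Trim28, a corepressor that silences retroelements in ES cells, differed by −1.45 ± 0.44 over 3 clones, by −0.78 without the D0 Cy3 array and by 0.05 on slide 2.

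In the pluripotency list 2 of 20 genes were lower with arrays that did not overlap, a share near the 8.08% of all genes. Both are named after their values were seen. Zfp57, the zinc finger protein that protects imprints, read 0.96 and −0.09 in D0 and −0.28 and −1.14 in D4-LIF on slide 2. It was lower in both pairs by more than 2-fold, with a difference of −1.15 ± 0.59. Gdf3, a ligand of the TGF-beta family, read 1.99 and 0.00 in D0 and −0.22 and −0.34 in D4-LIF, a difference of −1.28 that was −0.19 without the D0 Cy3 array.

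Germline-linked ES cell genes were less uniform. Of 25 listed genes 18 were measured, with 8 lower and 3 higher in both pairs and a median of −0.16. These counts lie near the shares over all genes, 36.9% and 22.7%. Tex19.1, which restrains retrotransposons, differed by −1.32 ± 0.42, and Dppa2, a chromatin factor of early embryos, by −1.62 ± 0.68. Without the D0 Cy3 array these were −0.50 and −0.18. Dppa5a, an RNA-binding protein of ES cells on slide 2, read 0.50 and −1.34 in D0 and −1.22 and −1.83 in D4-LIF, a difference of −1.10 ± 0.54. Within each dye D4-LIF lay below D0, and across the dyes the groups overlapped. With the Cy3 ratios turned the median of the pluripotency list was 0.62 and that of the germline list 0.09.

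**Figure D4:**
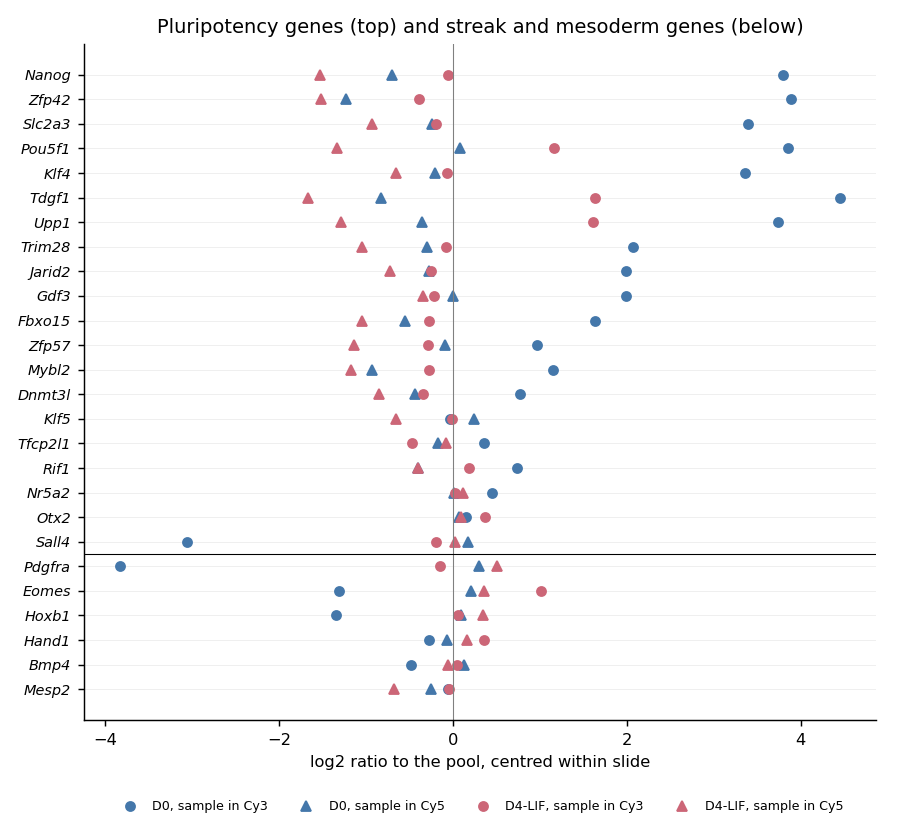
Centred log2 ratio to the pool in each of the 4 arrays for the 20 measured pluripotency genes (above the line) and the 6 measured streak and mesoderm genes (below it). Circles are arrays with the sample in Cy3 and triangles in Cy5, blue is D0 and red D4-LIF. The blue circles reach 3.89 for Zfp42 and −3.83 for Pdgfra, far from the other 3 marks of each gene.

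Genes of the primitive streak and mesoderm leaned the other way in few measured genes. Only 6 of 30 listed genes were on the array with a symbol, and brachyury, Mixl1 and Kdr were not among those measured. There were 4 higher and 0 lower in both pairs (22.7% and 36.9% of all genes), with a median of 0.63. It was 0.24 without the D0 Cy3 array and 0.02 once the common dye pattern was regressed out.

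Eomes, a T-box factor of the streak, read −1.31 and 0.21 in D0 and 1.02 and 0.36 in D4-LIF, a difference of 1.24 ± 0.90 without overlap that was 0.31 without the D0 Cy3 array. Hand1, a factor of extraembryonic and lateral mesoderm, read −0.27 and −0.07 in D0 and 0.36 and 0.16 in D4-LIF. Its groups did not overlap either, and its difference of 0.43 ± 0.37 was about as large as its error. Pdgfra, a receptor of mesoderm and primitive endoderm, differed by 1.95 ± 0.85, of which 0.17 remained without the D0 Cy3 array. None of these genes passed adjustment.

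Endoderm genes showed no common direction. Of 41 listed genes 23 were measured, 6 higher and 8 lower in both pairs, with a median of −0.03, close to the shares and the median of all genes. Gata6, the factor that starts primitive endoderm, read −0.61 and 0.00 in D0 and 0.12 and 0.37 in D4-LIF over 3 clones. Its arrays did not overlap and its difference was 0.55 ± 0.21, and 0.33 without the D0 Cy3 array. Gata4, its partner in visceral endoderm, differed by 0.17 ± 0.17, and by 0.10 without that array. Cited1, a transcriptional coregulator, differed by 0.95 ± 0.35 and by 0.31 without the D0 Cy3 array. The genes named here are all from the higher side of a list whose members ranged from −2.56 to 1.95. Without overlap of the arrays 5 of its 23 genes were lower and 2 higher (8.08% and 6.9% of all genes).

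Basement membrane genes, which endoderm cells of a body express strongly, were more often lower than higher, as were genes in general. Of 26 listed genes 20 were measured, 11 lower and 1 higher in both pairs (36.9% and 22.7% of all genes), with a median of −0.28. Sparc, a matrix glycoprotein abundant in parietal endoderm, differed by −1.99 ± 0.59 over 3 clones, by −1.31 on slide 2 and by −1.02 without the D0 Cy3 array. Nid1, which links laminin to collagen, differed by −1.53 ± 0.45, and Dag1, the laminin receptor dystroglycan, by −1.60 ± 0.50. Without the D0 Cy3 array these were −0.59 and −0.76. Lama1, the laminin chain of the first basement membranes, differed by −2.22 ± 0.88 and by −0.34 without the D0 Cy3 array. It is named after its values were seen.

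Markers of other cell types that bodies or cultures can hold had medians near 0, with members on both sides of it. The median difference was −0.25 over 5 neurectoderm genes (range −1.90 to 1.31), −0.20 over 10 trophoblast genes (−1.82 to 1.24), 0.10 over 8 erythroid and endothelial genes (−0.72 to 0.85) and 0.00 over 9 fibroblast genes (−1.65 to 0.32). Nes, the neural progenitor filament protein, differed by −0.76 ± 0.53, and Col1a1, a fibroblast collagen, by 0.29 ± 0.17. Without the D0 Cy3 array these were −0.09 and 0.17. In 8 measured primitive ectoderm genes the median was −0.01. A ratio to a pool gives no zero level, so it cannot show that a cell type was absent.

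Ribosomal protein genes were lower in the bodies as a whole. In both dye pairs 36.9% of all genes were lower and 22.7% higher. Of 47 measured genes of the large subunit 45 were lower and 0 higher in both dye pairs, and of 27 of the small subunit all 27 were lower. At least 2-fold lower in both pairs were 20 and 14 of them, where 162 of all 7142 genes were. At an unadjusted p under 0.05 there were 24 and 18, all lower (9.48% of all genes), with 0 passing adjustment. The median differences were −1.12 for the large and −1.19 for the small subunit. They did not rest on the D0 Cy3 array, without which they were −1.03 and −1.19, nor on slide 1, since slide 2 alone gave −0.94 and −1.03.

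Where these genes stood against the pool differed more between dyes than between conditions. The median over the large subunit was 1.33 and −0.88 in D0 and 0.25 and −2.13 in D4-LIF, and over the small subunit 1.25 and −0.89 in D0 and 0.11 and −2.20 in D4-LIF. Within each dye D4-LIF was lower by similar amounts, and across dyes the D4-LIF Cy3 array lay above the D0 Cy5 array. With arrays at equal MAD the medians were −0.49 and −0.71, and with the common dye pattern regressed out −0.17 and −0.43. With the Cy3 ratios turned they were 0.19 and 0.10, so their direction hangs on how the ratios were formed.

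The promoters of the leading genes are shown because ribosomal protein genes were lower together. Such promoters are known for a run of pyrimidines at the transcription start and for sites of ETS factors such as GABP. The windows below run from 70 bases before to 50 after the RefSeq start (GRCm38.p6), with the ETS-type motif CGGAAGT in capitals where it occurs on the strand shown. Rpl37 lies at chr15:5116543-5116662, Rpsa at chr9:120127696-120127815 and Rps9 at chr7:3703971-3704090, all on the plus strand.
Rpl37: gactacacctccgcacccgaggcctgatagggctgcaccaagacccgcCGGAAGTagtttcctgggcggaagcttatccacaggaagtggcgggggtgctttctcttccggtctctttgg
Rpsa: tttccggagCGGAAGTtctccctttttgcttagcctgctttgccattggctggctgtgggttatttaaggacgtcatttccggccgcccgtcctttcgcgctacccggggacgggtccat
Rps9: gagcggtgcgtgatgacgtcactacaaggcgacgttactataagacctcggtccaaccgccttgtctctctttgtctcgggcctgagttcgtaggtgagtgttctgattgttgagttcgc

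The motif was searched on both strands, as CGGAAGT or ACTTCCG, in the full RefSeq promoter windows of 300 bases, from 250 before to 50 after the start. It occurred for 21 of the 60 measured ribosomal protein genes with a window (35%), for 929 of 5781 measured genes (16.1%) and for 1947 of all 27025 genes (7.2%). Counted by window the shares were 31%, 13.5% and 6.42%, the last over all 32851 windows. Rpl37 and Rpsa held 1 match each in the stretch shown and Rps9 none. A match describes letters in the window and not a bound site.

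Rpl37, a protein of the large subunit, read 2.52 and −0.58 in D0 and 0.28 and −2.15 in D4-LIF, a difference of −1.90 ± 0.29. Rpsa, the small subunit protein also known as the laminin receptor, read 2.15 and −0.89 in D0 and 0.13 and −2.43 in D4-LIF over 7 clones, a difference of −1.78 ± 0.37. Rps9 read 2.58 and −0.76 in D0 and 0.29 and −2.06 in D4-LIF, a difference of −1.80 ± 0.43. In all 3 genes D4-LIF lay below D0 inside each dye, while the groups overlapped across dyes. Rpl7 differed by −1.70 ± 0.41, and its 8 clones ranged from −2.83 to −0.78. Arrays did not overlap for 0 of 47 large and 1 of 27 small subunit genes, where 8.08% of all genes were lower without overlap. The 1 was Rps12, named after its values were seen, with 0.16 and −0.29 in D0 and −0.44 and −1.71 in D4-LIF. Its difference of −1.01 was −1.65 without the D0 Cy3 array. Ribosomal protein genes have many near-identical processed copies, so a cDNA probe may bind transcripts of more than 1 locus.

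Other groups of growth and housekeeping genes also had medians below that of all genes. In both pairs 36.9% of all genes were lower and 22.7% higher. Among translation factors 36 of 59 were lower and 5 higher in both pairs, with a median of −0.69 that was 0.01 at equal MAD and −0.23 without the D0 Cy3 array. Eef1a1, the elongation factor that brings aminoacyl-tRNA to the ribosome, was read by 17 clones and differed by −1.58 ± 0.32. Among mitochondrial ribosomal proteins, to which Mrps9 belongs, 23 of 48 were lower and 4 higher, with a median of −0.70. Without the D0 Cy3 array that median was −0.17. Of 63 oxidative phosphorylation genes 42 were lower and 5 higher, with a median of −0.49 that was −0.17 at equal MAD and −0.32 without the D0 Cy3 array. Chaperones had a median of −0.68 over 73 genes, −0.02 at equal MAD and −0.18 without the D0 Cy3 array. For 17 glycolysis genes it was −1.46, and −0.26 without the D0 Cy3 array. That median was above 0 at equal MAD (0.12) and after quantile normalization (0.01).

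Of 25 measured iron storage and antioxidant genes, the list of Ftl1 and Sod1, 15 were lower and 3 higher in both pairs (36.9% and 22.7% of all genes). The list median was −0.91, −0.15 at equal MAD and −0.30 without the D0 Cy3 array. Mt1, the metal-binding metallothionein, read 4.14 and −0.34 in D0 and −0.56 and −2.36 in D4-LIF. Its groups did not overlap and its difference of −3.35 ± 1.13 was the lowest of all genes, with −1.55 left without the D0 Cy3 array. The list held 8 genes at least 2-fold lower in both pairs, where 2.27% of all genes were.

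**Figure D5:**
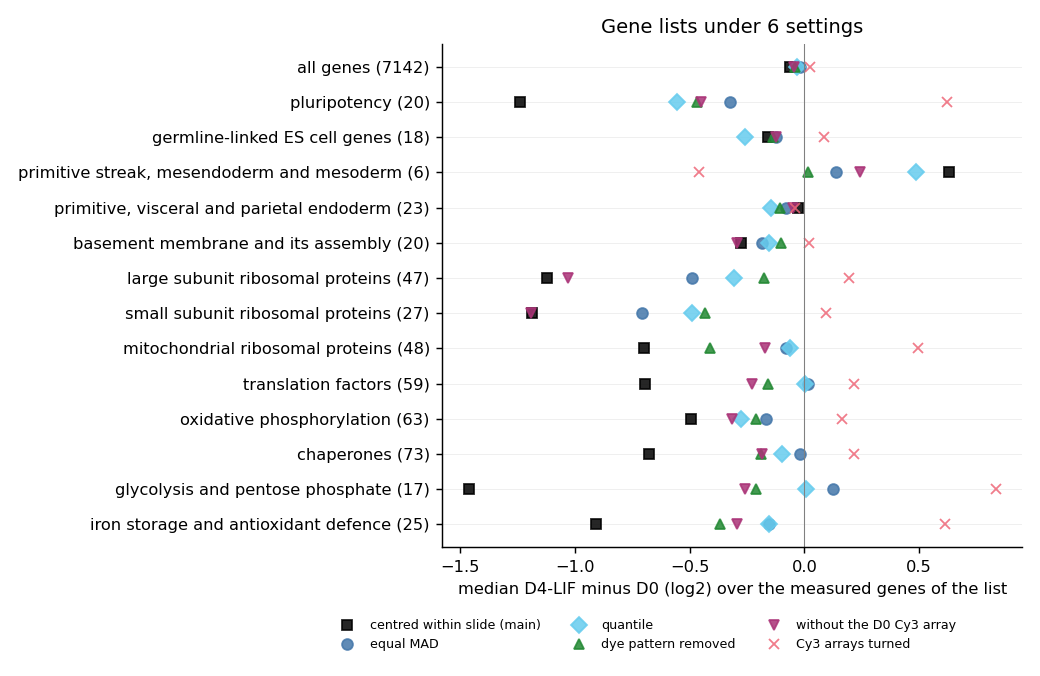
Median D4-LIF minus D0 (log2) over the measured genes of each list, with the number of genes in brackets, under 6 settings shown by marker. The 2 ribosomal protein lists and the pluripotency list, like several others, stay left of 0 in all settings but the turned Cy3 ratios. The pluripotency list moves from −1.24 to −0.45 without the D0 Cy3 array. The large subunit list moves from −1.12 to −0.17 with the dye pattern regressed out.

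Most measured genes that the study kept after its RT-PCR were lower. Of 16 measured genes that it had kept after RT-PCR of a larger selection, 14 were lower and 1, Aurkb, was higher in both pairs, with a median of −1.40. That median was −0.61 without the D0 Cy3 array, −0.26 at equal MAD, −0.08 with the dye pattern regressed out and 0.54 with the Cy3 ratios turned. The genes were chosen on arrays of these conditions and are not independent evidence of a direction. Aurkb read 1.46 and 0.08 in D0 and 3.36 and 1.58 in D4-LIF, a difference of 1.70 ± 1.13. Its values in D4-LIF were higher than in D0 within each dye, and the lower of them exceeded the higher D0 value.

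Common housekeeping genes, which the paper found to vary unpredictably during differentiation, were lower in both pairs too. The study used a ribosomal RNA as its reference instead. Actb, Gapdh and Hprt differed by −1.28 ± 0.67, −1.81 ± 0.84 and −1.26 ± 0.56, and with arrays at equal MAD by 0.96, 0.45 and 0.25. The 10 Actb clones ranged from −2.38 to 1.56. Without the D0 Cy3 array their differences were −0.07, −0.54 and −0.14. With all arrays the large and small subunit ribosomal protein medians, −1.12 and −1.19, lay above all 3 genes. Without the D0 Cy3 array, at −1.03 and −1.19, they lay below all 3, so the order depended on the setting.

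Where the bodies without LIF differed from bodies of the same day with LIF (D4+LIF) was tested in the same fit, in which the D0 arrays enter only the dye term and the estimate of spread. No gene passed (0 of 7142, limma with Benjamini-Hochberg adjustment), and 440 (6.16%) had an unadjusted p under 0.05, 133 higher (1.86%) and 307 lower (4.3%) without LIF. Ribosomal protein genes were higher without LIF, with medians of 0.77 for the large and 0.93 for the small subunit, and 13 of 47 and 11 of 27 higher at an unadjusted p under 0.05. At equal MAD those medians were −0.12 and −0.08 and with the dye pattern regressed out −0.04 and −0.02, so this direction did not hold under those settings. On slide 2 the D4+LIF array in Cy5 had an SD of 1.41 and on slide 1 of 0.68. The medians were 0.98 and 1.10 on slide 2 and 0.23 and 0.26 on slide 1, where 0 of 3925 genes had an unadjusted p under 0.05. Rpsa differed by 0.83 ± 0.37 between the bodies. D4+LIF minus D0 had medians of −2.15 and −2.25 in the same lists, beside the −1.12 and −1.19 of D4-LIF, both taken against the same D0 arrays.

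Tgfb2 was 0.61 ± 0.17 higher without LIF than with it (adjusted p 0.764 in limma with Benjamini-Hochberg adjustment). Its D4+LIF arrays read −0.34 and 0.00, below the 0.43 and 0.44 of D4-LIF. Pou5f1 differed by 0.26 ± 0.77 between bodies without and with LIF, and the pluripotency list by a median of 0.09, with 0 of 20 genes under an unadjusted p of 0.05. Earlier bodies without LIF also stood below D0 in ribosomal protein genes, with large subunit medians of −1.71 on day 1, −0.73 on day 2 and −1.62 on day 3, again against the same D0 arrays. The Cy5 array of day 2 lacked values for 15249 of 34560 spots.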

How the data were processed

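The authors hybridised labelled cDNA of each sample against a pooled control on a mouse cDNA clone set printed on 2 slides with duplicate spots, scaled each channel to its mean and deposited 1 linear ratio per spot. Ratios were log2 transformed here, duplicate spots (160 positions apart inside blocks of 360 spots) averaged, and each array centred on its median within each slide. Of 34560 spots 1 had the value 0 on an array. Some arrays of other conditions lacked values for many spots, and those clones were fitted on the arrays that had one. Clones were named from the platform annotation, and for 9760 of 9866 the symbol was taken from RefSeq (GRCm38.p6) by gene ID, whether or not it differed. A gene is the mean of its clones.

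Means of 9 conditions plus a dye term were fitted over all 18 arrays with limma 3.58.1 (R 4.3.3), clones and genes separately, with Benjamini-Hochberg adjustment at 0.05. The study's own test took duplicate spots as replicates and was not used. The fit was also run on simulated arrays with known changes, and no result of that run is used here. The p-values measure the spread between arrays.

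Members and gene lists were chosen with earlier results of these data known. Named genes are the 12 higher and 12 lower of smallest p with 1 sign in both dye pairs under 4 scalings, and up to 3 per list. Genes the study kept after RT-PCR and its housekeeping and marker genes are named too. Alternatives were centring, equal MAD, quantile normalization, removal of the dye pattern, turned Cy3 ratios, filters, single slides, fits with fewer arrays or array weights, and no dye term. Combinations of slide 2 with a rescaling were chosen after seeing the data. Arrays of 1 dye paired because the labels give the dye.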

Additional observations from a re-analysis of the deposited data

How the results depend on the processing

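Scale and direction of the ratios moved the results most. Without centring the median of all genes was 0.33 instead of −0.07, and changes are relative to that. Of 55 named genes, 50 changed sign with the Cy3 ratios turned, 4 at equal MAD and 3 after quantile normalization. With array weights or with only the 4 arrays fitted the medians equalled those of the main fit. With only the 4 arrays the differences are the same by design, so no sign could change. The cause of these shifts was not tested. Medians are log2 differences over the lists named in the report.

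The dye term served as the replicate block, pairing arrays of 1 dye. Without it, 0 clones and 0 genes were called by limma, and 400 clones and 170 genes had an unadjusted p under 0.05. It changed no call. No group had enough arrays for a check of single outlying arrays.

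With 1 centre over both slides, 8 genes were at least 2-fold higher and 107 lower in both pairs. The medians were 1.65 for streak and mesoderm and 0.040 for endoderm. The difference changed sign for Nes 0.26.
Without centring, 39 genes were at least 2-fold higher and 21 lower in both pairs. The medians were 0.23 for germline-linked, 2.01 for streak and mesoderm, 0.40 for endoderm, 0.071 for basement membrane, −0.75 for large subunit and −0.83 for small subunit. Opposite in sign were Actb 0.10, Gdf3 0.10, Nes 0.62 and Tex19.1 0.065.
At equal MAD, 11 genes were at least 2-fold higher and 5 lower in both pairs. The medians were −0.081 for endoderm, −0.18 for basement membrane, −0.49 for large subunit and −0.71 for small subunit. The sign turned for Actb 0.96, Gapdh 0.45, Hprt 0.25 and Zfp42 0.21. Against bodies with LIF the sign changed for Rpsa −0.081.
After quantile normalization, 62 genes were at least 2-fold higher and 4 lower in both pairs and 1 clone was called. The medians were −0.26 for germline-linked, −0.15 for endoderm, −0.16 for basement membrane, −0.31 for large subunit and −0.49 for small subunit. Among genes the sign changed for Actb 0.24, Gapdh 0.055 and Hprt 0.100.
With the dye pattern regressed out, 8 genes were at least 2-fold higher and 17 lower in both pairs. The medians were 0.016 for streak and mesoderm, −0.11 for endoderm, −0.10 for basement membrane, −0.17 for large subunit and −0.43 for small subunit. The difference changed sign for Actb 0.60, Eef1a1 0.13 and Hprt 0.0033. Against bodies with LIF the sign changed for Rpsa −0.20.
With the Cy3 ratios turned, 2 genes were at least 2-fold higher and 2 lower in both pairs. The medians were 0.62 for pluripotency, 0.085 for germline-linked, −0.46 for streak and mesoderm, −0.042 for endoderm, 0.019 for basement membrane, 0.19 for large subunit, 0.096 for small subunit and 0.61 for iron and antioxidant. Opposite in sign were Actb 0.59, Anxa6 0.15, Atp5b 0.39, Atp5pb 0.39, Aurkb −0.20, Car7 −0.78, Cited1 −0.51, Cited2 −1.60, Col1a1 −0.23, Dag1 0.54, Dppa2 1.44, Dppa5a 0.62, Eef1a1 0.22, Eif3k 0.17, Eomes −1.09, Fthl17a −0.74, Ftl1 0.74, Gapdh 0.55, Gata4 −0.090, Gata6 −0.18, Gdf3 0.93, Hand1 −0.20, Hprt 1.13, Hspb1 0.30, Klf4 1.49, Lama1 1.87, Mt1 1.34, Myc 0.65, Nanog 1.52, Nes 0.96, Nid1 0.90, Otx2 −0.097, Pdgfra −1.74, Pou5f1 0.64, Rhoa 0.37, Rpl37 0.34, Rpl7 0.012, Rps9 0.49, Rpsa 0.24, Snx9 −0.49, Socs3 0.70, Sod1 0.047, Sparc 0.97, Spryd7 −0.24, Tex19.1 0.86, Tgfb2 −0.11, Trim28 0.70, Vrtn −0.48, Zfp42 1.99 and Zfp57 0.096. Against bodies with LIF the sign changed for Tgfb2 −0.17.
With duplicate spots within 1 log2 unit, 3 genes were at least 2-fold higher in both pairs. The medians were −0.23 for germline-linked, −0.088 for endoderm and −0.41 for basement membrane.
For clones with a value on all 18 arrays, 0 genes were at least 2-fold higher in both pairs. The medians were −0.050 for germline-linked, −1.17 for streak and mesoderm (1 gene), −0.074 for endoderm, −0.37 for basement membrane and −1.07 for small subunit.
On slide 1, the medians were −0.85 for germline-linked, −0.23 for endoderm, −1.53 for basement membrane, −2.37 for large subunit, −2.43 for small subunit and −2.05 for iron and antioxidant.
On slide 2, 0 genes were at least 2-fold higher and 33 lower in both pairs. The medians were −0.022 for germline-linked, −1.17 for streak and mesoderm (1 gene), −0.050 for endoderm and −1.03 for small subunit. The sign turned for Trim28 0.053.
On slide 2 at equal MAD, 0 genes were at least 2-fold higher and 6 lower in both pairs. The medians were −1.07 for streak and mesoderm (1 gene), −0.12 for endoderm, −0.22 for basement membrane, −0.68 for large subunit and −0.88 for small subunit. Against bodies with LIF the sign changed for Rpsa −0.38.
On slide 2 with the dye pattern regressed out, 1 gene was at least 2-fold higher and 2 lower in both pairs. The medians were −0.070 for germline-linked, −0.39 for streak and mesoderm (1 gene), −0.078 for endoderm, −0.10 for basement membrane, −0.14 for large subunit and −0.36 for small subunit. Among genes the sign changed for Trim28 0.13. Against bodies with LIF the sign changed for Rpsa −0.27.
On slide 2 after quantile normalization, 0 genes were at least 2-fold higher and 3 lower in both pairs. The medians were −0.28 for germline-linked, −0.76 for streak and mesoderm (1 gene), −0.15 for endoderm, −0.044 for basement membrane, −0.35 for large subunit and −0.64 for small subunit. The difference changed sign for Hprt 0.0040.

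Leaving out each of the 4 arrays in turn gave 0 to 4224 for clones called, 0 to 2007 for genes called, −0.25 to −0.061 for the germline-linked median, −0.18 to −0.031 for the endoderm median, −0.44 to −0.18 for the basement membrane median, −1.34 to −1.09 for the small subunit median and −0.0074 to 0.53 for Pou5f1 against bodies with LIF. The counts of 4224 clones and 2007 genes came without the D0 array in Cy5, when D0 was assumed to vary like the other groups.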
